A study of Danio rerio with 7 samples.

Results

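Genes used to mark endothelial cells and endocardium were followed in labelled cells sorted from injured zebrafish hearts. They were every gene ID of the deposited table whose zebrafish gene name equals kdrl, cdh5, pecam1, cd34, CLDN5, fli1, tie1, tek or erg, in any case and with or without a final paralog letter. The rule found 11 of 31388 IDs for the 9 names, with CLDN5 and pecam1 on 2 IDs each and no name without an ID. The 2 pecam1 IDs carry the symbols pecam1a and pecam1b, whereas both claudin IDs carry CLDN5 and are told apart by their IDs, ENSDARG00000014059 and ENSDARG00000043716. No other ID of the table had the same values in all 7 libraries as any of the 11.

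The 60 dpi group comprised 3 pools (replicates 1, 2 and 4), and the 7 dpi group 4 pools (replicates 1 to 4). The time is given in days after cryoinjury (dpi), a freezing injury of the ventricle. All pools came from adult fish aged 3 to 9 months carrying postnb:CreERT2, a Cre recombinase under the control of the periostin gene postnb that works only with tamoxifen, and ubb:loxP-GFP-loxP-mCherry, a reporter that turns from GFP to mCherry for good once Cre has acted. Every fish had received 10 µM 4-OHT overnight at 3 and 4 dpi, so both groups hold descendants of cells that used the postnb promoter in the first days after injury. mCherry-positive cells of the ventricular apex were sorted, and 0.2 to 0.6 ng of total RNA from pools of 3 to 5 hearts was amplified. No unsorted heart and no sample of sorted endothelium was used here. Values are TPM, a length-corrected transcript abundance scaled to the same sum in each library, so levels may be set side by side between genes, but the read depth behind them is unknown. Nothing in the labels says more of how the pools were separated, so p-values measure the spread between these pools.

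Endothelial cells line blood vessels, and the endocardium is the endothelium that lines the heart chambers. They are recognised by receptors for vascular growth factors (kdrl, tie1, tek), by proteins that join neighbouring cells (cdh5, pecam1, CLDN5), by the surface sialomucin cd34, and by the ETS transcription factors fli1 and erg, which switch on many vascular genes. After cryoinjury in zebrafish, vessels grow into the wound early and the endocardium around the wound is activated. Several of these genes are not used by endothelium alone: in mouse, cd34 is also carried by blood progenitors and by fibroblasts of many tissues, and fli1 and erg also act in blood cells, including the platelet lineage.

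The libraries differed in how much they detected. In replicate 4 of each group, 10840 IDs at 60 dpi and 9844 IDs at 7 dpi reached a TPM of at least 1, against 13352 to 15431 IDs in the other 5 libraries. IDs without a symbol held 15.8 to 19.2% of the TPM at 60 dpi and 20.2 to 40.0% at 7 dpi. Genes with a symbol thus shared a smaller part of the total at 7 dpi, and a rescaling over them is among the alternatives below. Fibroblast genes were high in both groups, with a summed TPM over 14 IDs of 7197 to 8764 at 60 dpi and 6481 to 8905 at 7 dpi. The 10 endothelial marker IDs other than cd34 summed to 85.33, 97.76 and 113.97 TPM at 60 dpi (replicates 1, 2 and 4) and to 198.49, 62.85, 104.55 and 35.12 TPM at 7 dpi (replicates 1 to 4). These sums overlapped between the groups, and the pools at 7 dpi spread more widely than those at 60 dpi. Sums over different gene sets do not give the share of each cell type in a pool.

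Of the 11 marker IDs, cd34 alone passed the test between the stages: it was 3.50-fold higher at 60 dpi in mean TPM. The ID of CLDN5 that was the more abundant at 7 dpi had lower values in every pool at 60 dpi but narrowly missed the threshold, and the receptors, the other junction genes and both ETS factors overlapped between the stages. The minimum for testing, 1 TPM in 3 or more libraries, was reached by 9 of the 11 IDs, and 1 of the 9 was higher and none was lower (limma on log2(TPM + 1), Benjamini-Hochberg adjusted p under 0.05 over all 15130 tested IDs). Over all tested IDs, 6.88% passed, 3.2% as higher and 3.68% as lower, so a single member of 9 is close to that background. At an unadjusted p under 0.05, 3 of the 9 did and 22% of all tested IDs did. In 2 of the 9, cd34 and CLDN5 (ENSDARG00000014059), the groups did not overlap, against 21.3% of all tested IDs. The median log2 fold change of the 9 was 0.20, against -0.04 over all tested IDs, and its sign rested on single libraries: it was -0.66 without 7 dpi replicate 4, -0.11 without 60 dpi replicate 1, -0.03 without 60 dpi replicate 4 and 0.70 without 7 dpi replicate 1. It was -0.23 without replicate 4 of both groups and -0.09 with quantile normalization. With TPM rescaled over IDs that have a symbol it was -0.04, beside -0.26 over all tested IDs, so it lay 0.23 above them, against 0.25 before. In bulk pools such as these, fewer cells of a type and less RNA per cell cannot be told apart.

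**Figure D1:**
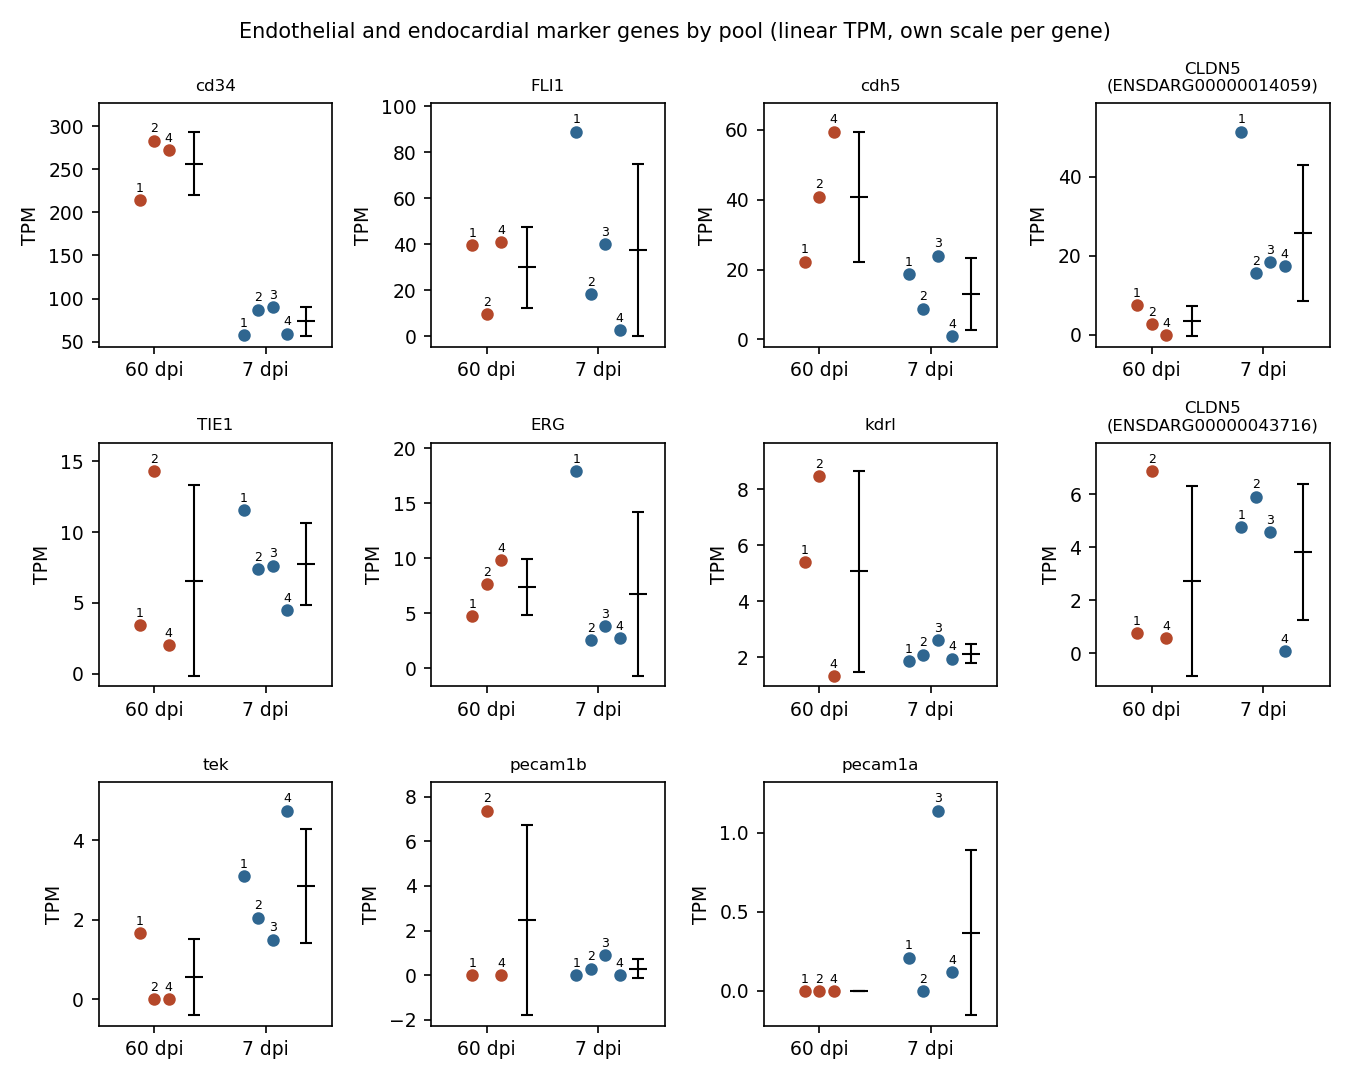
TPM of each of the 11 marker IDs in each pool, on a linear scale of its own per gene, with 60 dpi in red and 7 dpi in blue; small digits are replicate numbers and the black bars show the mean and SD. cd34 sits between 214.48 and 283.31 TPM at 60 dpi, above all pools at 7 dpi, while most other genes overlap between the stages.

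cd34, the surface sialomucin, had the highest mean TPM of the marker genes at both stages, though FLI1 exceeded it in replicate 1 at 7 dpi. It had 214.48, 283.31 and 272.27 TPM at 60 dpi (replicates 1, 2 and 4), against 57.71, 87.13, 89.75 and 59.18 TPM at 7 dpi (replicates 1 to 4). The lowest pool at 60 dpi was thus well above the highest at 7 dpi, and the pools of each stage lay close to one another. The means were 257 ± 37.0 TPM (SD, n = 3) at 60 dpi and 73.4 ± 17.4 TPM (SD, n = 4) at 7 dpi, giving a log2 fold change of 1.81 ± 0.31 (SE, 95% interval 1.13 to 2.49, limma adjusted p = 0.00605). The call was kept when any one library was left out, with log2 fold changes of 1.71 to 1.93 and adjusted p of 0.0126 to 0.0324, and was lost when limma was run without a mean-variance trend (adjusted p = 0.0774). Among the tested IDs, cd34 stood at percentiles 97.1 to 97.5 of TPM at 60 dpi and 86.9 to 94.8 at 7 dpi. It made up 70.5 to 74.3% of the summed TPM of the 11 IDs at 60 dpi and 22.5 to 62.8% at 7 dpi.

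Marker levels of other cell types differed beside this change. Of 14 tested fibroblast IDs 3 rose (21.4%) and 2 fell (14.3%), against 3.2% and 3.68% over all tested IDs. The smallest p of the list was that of POSTN (ENSDARG00000104267), 1 of 2 IDs of periostin, a matrix protein of activated fibroblasts, which fell to 109 ± 24.8 TPM in the late pools (SD, n = 3), against 948 ± 113 TPM in the early pools (SD, n = 4), with a limma adjusted p of 0.000101 and a call that held in all 18 alternatives. FN1 (ENSDARG00000019815), a fibronectin gene, was the other that fell, with 121 ± 55.5 TPM in the late pools and 514 ± 127 TPM in the early pools (adjusted p = 0.0044). Among those that rose were DPT, which encodes the matrix protein dermatopontin, at 1361 ± 99.9 TPM in the late pools (SD, n = 3) and 306 ± 147 TPM in the early pools (SD, n = 4), and PDGFRA, a growth factor receptor gene of fibroblasts, with 80.4 ± 12.0 and 19.7 ± 8.91 TPM (limma adjusted p = 0.00413 and 0.0226; the PDGFRA call was lost in 7 of 18 alternatives). The DPT and FN1 calls were lost without a mean-variance trend (adjusted p = 0.0626 and 0.065). DCN was the remaining fibroblast ID that rose, with 1112 ± 94.4 TPM in the late pools and 492 ± 157 TPM in the early pools. Its call (limma adjusted p = 0.0278) was lost in 11 of 18 alternatives. Of 16 tested leukocyte IDs none rose and 10 fell (62.5%, against 3.68% over all tested IDs). The leukocyte sum over 17 IDs was 2440 to 5122 TPM at 60 dpi and 8107 to 10922 TPM at 7 dpi. Of 12 tested IDs of the mural cell list 2 rose (16.7%, against 3.2% over all tested IDs) and none fell. They were rgs5b and RGS5 (limma adjusted p = 0.000924 and 0.00609), and both calls held in all 18 alternatives. In the mural list the groups did not overlap in 6 higher IDs (50%, against 10.3% of all tested IDs). They also did not overlap in 2 lower ones (16.7%, against 11%). The lower ones were TAGLN (ENSDARG00000045408), with a late mean of 88.7 TPM against an early mean of 288 TPM, and MYH11 (ENSDARG00000009782), with 25.4 against 68.8 TPM. Neither passed (limma adjusted p = 0.0765 and 0.121). Of 9 tested IDs of the epicardium list 2 rose (22.2%) and none fell. They were krt4 and krt94 (limma adjusted p = 0.00865 and 0.0362), with calls lost in 2 and 10 of 18 alternatives. The part of these cells in the cd34 difference was not tested.

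The IDs most like cd34 in the shape of their profiles were taken from 9510 candidates. The endothelial lists hold only 106 tested IDs, so which IDs came closest cannot tell whether the profile is vascular. With profiles of log2(TPM + 1) centred over the 7 libraries, the closest of the tested IDs that have a symbol and a mean of at least 5 TPM was pkd1a, a polycystin gene, at a root mean square difference of 0.12 on the log2 scale. It had 46.33, 53.65 and 50.87 TPM at 60 dpi, against 9.75, 14.60, 17.40 and 9.06 TPM at 7 dpi. ARHGEF10L (ENSDARG00000088630) and ZFYVE21 followed at 0.22 and 0.23. All 3 had higher values at 60 dpi in every pool, as cd34 did, which follows from their choice by likeness to it.

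Among the junction genes, cdh5 and CLDN5 (ENSDARG00000014059) pointed in opposite directions. cdh5 encodes VE-cadherin, the adhesion protein of endothelial cell contacts. It had 22.25, 40.85 and 59.48 TPM at 60 dpi, against 18.75, 8.80, 23.93 and 0.85 TPM at 7 dpi. The values overlapped only through replicate 1 at 60 dpi and replicate 3 at 7 dpi, and replicate 4 at 7 dpi was far below the rest. The means were 40.9 ± 18.6 TPM (SD, n = 3) and 13.1 ± 10.3 TPM (SD, n = 4). The log2 fold change of 2.0 ± 0.83 (SE, 95% interval 0.19 to 3.81) did not pass (limma adjusted p = 0.18), and it was 0.88 without replicate 4 of both groups. Over the alternatives the limma adjusted p of cdh5 ranged from 0.141 to 0.369.

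CLDN5 encodes claudin 5, a sealing protein of endothelial tight junctions. CLDN5 (ENSDARG00000014059) had 7.52, 2.73 and 0.00 TPM at 60 dpi, against 51.44, 15.55, 18.36 and 17.39 TPM at 7 dpi. All 3 pools at 60 dpi lay below all 4 at 7 dpi, of which replicate 1 stood far above the others. To reach the minimum for testing, this ID needed only the early pools, where it was the higher. The log2 fold change was -2.90 ± 0.83 (SE, 95% interval -4.69 to -1.10), with a limma adjusted p of 0.0571. The result sat at the threshold: it passed in 5 of 18 alternatives, among them quantile normalization (adjusted p = 0.0286), median-ratio scaling (0.0439) and the omission of 60 dpi replicate 1 (0.0366), while without 7 dpi replicate 1 the adjusted p was 0.17. Over the alternatives the adjusted p ranged from 0.0286 to 0.17 and the log2 fold change from -3.61 to -1.83.

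The other claudin ID was the less abundant of the pair in every early pool. CLDN5 (ENSDARG00000043716) had 0.75, 6.86 and 0.58 TPM at 60 dpi, against 4.74, 5.90, 4.56 and 0.09 TPM at 7 dpi. Replicate 2 was the highest pool of each stage, and replicate 4 the lowest. The log2 fold change was -0.50 ± 0.96 (SE, 95% interval -2.59 to 1.6, limma adjusted p = 0.826), so a change of several-fold in either direction lies within the interval. RSEM shares reads among similar transcripts, so the split of reads between the claudin paralogs carries an uncertainty that the table does not give.

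pecam1, which encodes the adhesion molecule CD31, was near 0 in these pools. pecam1a was listed at 0 in all 3 pools at 60 dpi, and had 0.21, 0.00, 1.14 and 0.12 TPM at 7 dpi. pecam1b was listed at 0 in replicates 1 and 4 at 60 dpi and had 7.37 TPM in replicate 2, against 0.00, 0.29, 0.91 and 0.00 TPM at 7 dpi. Each ID reached a TPM of 1 in only 1 of the 7 libraries, so neither was tested. From so little amplified RNA, a listed 0 does not show that the transcript was absent.

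None of the growth factor receptors passed the test, and their largest mean was 7.76 TPM (TIE1 at 7 dpi). kdrl, a receptor for vascular endothelial growth factor and a standard marker of zebrafish endothelium and endocardium, had 5.40, 8.46 and 1.34 TPM at 60 dpi, against 1.86, 2.10, 2.61 and 1.96 TPM at 7 dpi. Of the pools at 60 dpi, replicates 1 and 2 were above all pools at 7 dpi and replicate 4 was below them all. For kdrl the log2 fold change was 0.74 ± 0.82 (SE, 95% interval -1.04 to 2.52, limma adjusted p = 0.662). kdrl stood at percentiles 34.2 to 51.8 of the tested IDs at 60 dpi and 17.6 to 41.4 at 7 dpi.

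TIE1, an orphan receptor that works together with the angiopoietin receptor, had 3.43, 14.29 and 2.01 TPM at 60 dpi, against 11.55, 7.37, 7.63 and 4.49 TPM at 7 dpi. The highest value and the 2 lowest values were both at 60 dpi, so the early pools lay inside the range of the late ones. Its log2 fold change was -0.51 ± 0.80 (SE, 95% interval -2.26 to 1.23, limma adjusted p = 0.775). TIE1 stood at percentiles 31.98 to 64.53 of the tested IDs at 60 dpi and 48.25 to 53.93 at 7 dpi. tek, the angiopoietin receptor gene, had 1.66, 0.00 and 0.00 TPM at 60 dpi, against 3.10, 2.05, 1.5 and 4.74 TPM at 7 dpi. The groups overlapped only through replicate 1 at 60 dpi and replicate 3 at 7 dpi. The log2 fold change of tek was -1.40 ± 0.73 (SE, 95% interval -3.0 to 0.20, limma adjusted p = 0.29), on a scale that understates changes at such low TPM. The 4 early pools, where tek was the higher, were enough on their own for it to reach the minimum for testing.

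The ETS factors varied more between pools of a stage than between stages. FLI1 had 39.57, 9.55 and 40.75 TPM at 60 dpi, against 88.91, 18.21, 40.08 and 2.73 TPM at 7 dpi. The early pools thus enclosed the late ones, with replicate 1 the highest and replicate 4 the lowest of all libraries. The log2 fold change of 0.20 ± 0.93 (SE, 95% interval -1.82 to 2.23, limma adjusted p = 0.934) changed sign in 6 of 18 alternatives, quantile normalization and the omission of replicate 4 of both groups among them. In 1 of the 6, the rescaling over IDs with a symbol, FLI1 had -0.035 beside a median of -0.26 over all tested IDs. ERG had 4.75, 7.65 and 9.81 TPM at 60 dpi, against 17.93, 2.58, 3.83 and 2.75 TPM at 7 dpi. Every pool at 60 dpi exceeded replicates 2, 3 and 4 at 7 dpi, and replicate 1 at 7 dpi exceeded them all. Its log2 fold change was 0.46 ± 0.83 (SE, 95% interval -1.35 to 2.26, limma adjusted p = 0.812), and 1.02 without 7 dpi replicate 1 (adjusted p = 0.569).

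**Figure D2:**
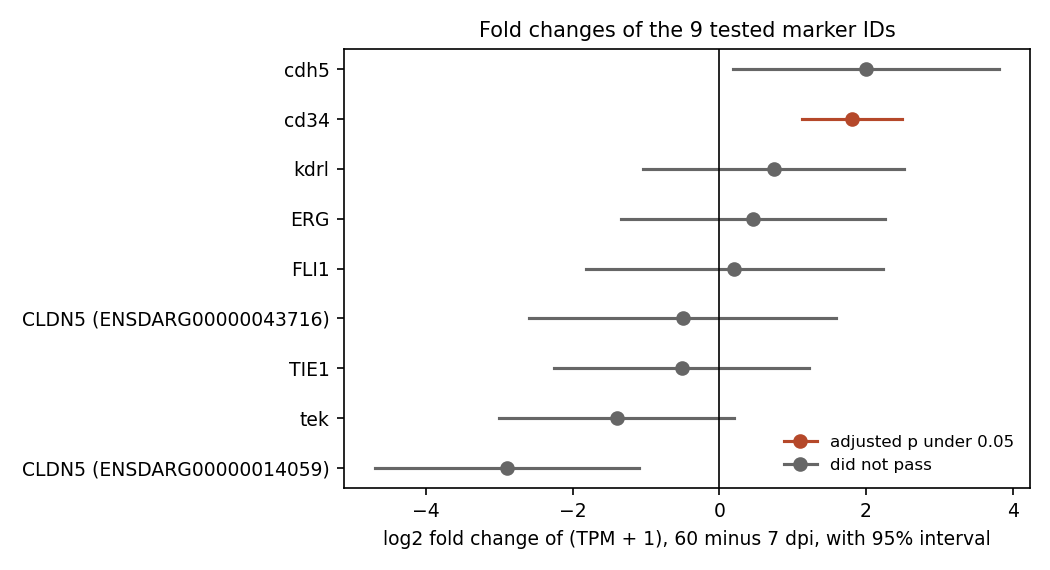
Fold changes (points) of the 9 tested marker IDs with 95% intervals (lines), on the log2(TPM + 1) scale, 60 minus 7 dpi; red marks an adjusted p under 0.05. cd34 has the narrowest interval, 1.13 to 2.49, while those of cdh5 and CLDN5 (ENSDARG00000014059) lie on opposite sides of 0 and did not pass after adjustment.

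The order of the mean levels differed between the stages, though most neighbours within a stage overlapped in the range of their pools. CLDN5 (ENSDARG00000014059), whose groups did not overlap, stood at rank 3 at 7 dpi and at rank 7 at 60 dpi. At 60 dpi the means ran cd34, cdh5 (40.9 TPM), FLI1 (30.0 ± 17.7 TPM, SD, n = 3), ERG (7.40 ± 2.54 TPM), TIE1 (6.58 ± 6.72 TPM), kdrl (5.07 ± 3.57 TPM), CLDN5 (ENSDARG00000014059, 3.42 ± 3.81 TPM), CLDN5 (ENSDARG00000043716, 2.73 ± 3.58 TPM), pecam1b, tek and pecam1a. Only cd34 was separate from the gene next to it, and every other pair of neighbours overlapped in the range of its pools. At 7 dpi the order was cd34, FLI1 (37.5 ± 37.6 TPM, SD, n = 4), CLDN5 (ENSDARG00000014059, 25.7 ± 17.2 TPM), cdh5 (13.1 TPM), TIE1 (7.76 ± 2.90 TPM), ERG (6.77 ± 7.46 TPM), CLDN5 (ENSDARG00000043716, 3.82 ± 2.56 TPM), tek (2.85 ± 1.43 TPM), kdrl (2.13 ± 0.33 TPM), pecam1a and pecam1b. There, kdrl and pecam1a were the only neighbours whose ranges did not overlap.

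No single library carried all markers up or down together. Of the 9 tested IDs, 4 had their highest value in 60 dpi replicate 2 (cd34, kdrl, TIE1 and CLDN5 (ENSDARG00000043716)) and 3 in 7 dpi replicate 1 (FLI1, ERG and CLDN5 (ENSDARG00000014059)). Replicate 4 at 60 dpi held the highest value of cdh5 and the lowest of 4 IDs, tek tied with replicate 2, and replicate 4 at 7 dpi the highest of tek and the lowest of 3. A TPM of at least 1 was reached by 8, 9 and 6 of the 11 IDs at 60 dpi and by 9, 9, 10 and 7 at 7 dpi. The 2 replicates 4, the libraries with the fewest detected IDs, had the fewest.

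Other endothelial genes gave a mixed picture in their calls as well. In 6 lists of endothelial, endocardial, lymphatic and arterial genes, 122 IDs were found and 106 tested, and of these 4 rose (3.77%) and 3 fell (2.83%), against 3.2% and 3.68% over all tested IDs. The share called, 6.6%, is thus near the background of 6.88%. The median log2 fold change was 0.36, against -0.04 over all tested IDs, and lay 0.25 to 0.53 above that of all tested IDs under every one of the 18 alternatives. By list it ran from 0.05 (arterial and tip cell) to 0.56 (signalling and cytoplasmic). Without 7 dpi replicate 2 the arterial median was -0.23, against -0.05 over all tested IDs. Raised medians were not particular to endothelial lists: mural cells had 0.91, cardiomyocytes 0.84, epicardium 0.80 and fibroblasts 0.07. Erythrocytes and thrombocytes had -1.74 and leukocytes -1.97. The groups did not overlap in 25 higher IDs (23.6%, against 10.3% of all tested IDs) and 12 lower ones (11.3%, against 11%). Together these were 34.9% of the 106, against 21.3% of all tested IDs, so the excess lay on the higher side. The 4 that rose became 1 when any one of replicates 1 and 2 at 60 dpi or 2 and 3 at 7 dpi was left out, and 2 without 60 dpi replicate 4 or 7 dpi replicate 1. They also became 1 without the filter on low values and with TPM rescaled over IDs that have a symbol, where 7 fell and the median of all tested IDs moved as given above.

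**Figure D3:**
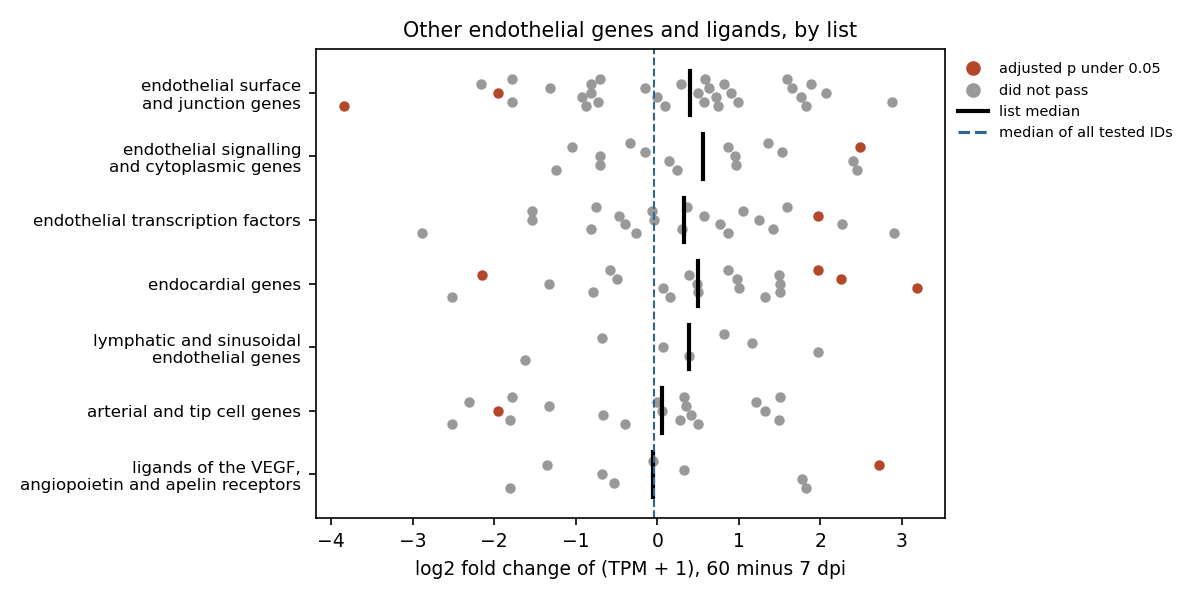
Each point is a tested ID of the list named at the left, placed by its log2 fold change of (TPM + 1), 60 minus 7 dpi; red points passed an adjusted p of 0.05, black bars are list medians and the dashed line is the median of all tested IDs, -0.04. The passing IDs are few and lie on both sides of 0.

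In the list of surface and junction genes, none of 32 tested IDs rose and 2 fell (6.25%, against 3.68% over all tested IDs). robo4, a guidance receptor gene of vessels, had 0.14, 0.00 and 1.61 TPM at 60 dpi, against 15.79, 19.00, 14.19 and 33.91 TPM at 7 dpi. All early pools were far above all late ones. The log2 fold change was -3.84 ± 0.76 (SE, limma adjusted p = 0.0121), and the call was lost in 1 of 18 alternatives. The early pools, where robo4 was the higher, were enough on their own for it to reach the minimum for testing. CXCR4 (ENSDARG00000041959), a chemokine receptor gene used by growing vessels and widely by leukocytes, had 55.83, 31.60 and 32.05 TPM at 60 dpi, against 195.60, 123.88, 127.07 and 173.77 TPM at 7 dpi. Its log2 fold change was -1.96 ± 0.35 (SE, limma adjusted p = 0.00763, and 0.0697 without a mean-variance trend), and the call was lost in 2 of 18 alternatives. This CXCR4 ID was also the 1 of 19 tested arterial and tip cell IDs that fell (5.26%, against 3.68% over all tested IDs). None of these 19 rose. The lists name cxcr4a, which was matched to 2 IDs of the symbol CXCR4 that the name table does not tell apart as paralogs. The other one, ENSDARG00000057633, was listed at 0 in all 3 pools at 60 dpi, against 10.45, 2.47, 1.36 and 0.48 TPM at 7 dpi. It reached the minimum for testing only through the early pools, where it is high, and did not pass (limma adjusted p = 0.203). In these pools the leukocyte sum was lower at 60 dpi as given above, and its part in the CXCR4 differences was not tested.

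Other surface genes pointed upwards or downwards without passing. ADGRL4, an adhesion receptor gene of endothelium, had 11.53, 8.74 and 18.93 TPM at 60 dpi, against 0.49, 1.26, 2.27 and 0.00 TPM at 7 dpi (limma adjusted p = 0.0557). ramp2, which encodes a partner of the adrenomedullin receptor, had 69.8 ± 30.0 TPM at 60 dpi (SD, n = 3) and 21.0 ± 7.51 TPM at 7 dpi (SD, n = 4; limma adjusted p = 0.0581). In both the groups did not overlap. For ADGRL4, the late pools, where it was the higher, were enough on their own to reach the minimum for testing. mmrn2a, a gene of the endothelial basement layer, pointed downwards, with 5.33 ± 6.08 TPM at 60 dpi and 19.8 ± 5.03 TPM at 7 dpi. Its groups did not overlap either (limma adjusted p = 0.112). The more abundant acvrl1 and NRP1, receptor genes for BMP and for semaphorin and VEGF ligands, averaged 65.9 ± 27.6 and 67.5 ± 14.1 TPM in the late pools, against 70.1 ± 9.81 and 40.0 ± 1.95 TPM in the early ones (adjusted p = 0.867 and 0.255).

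Among 16 tested signalling and cytoplasmic genes 1 rose (6.25%, against 3.2% over all tested IDs) and none fell. It was stard9, with 28.38, 21.56 and 26.72 TPM at 60 dpi, against 4.84, 5.49, 4.32 and 1.42 TPM at 7 dpi (limma adjusted p = 0.0412, lost in 10 of 18 alternatives, among them the omission of any one library other than 7 dpi replicate 4). EGFL7, which encodes a protein secreted by endothelium, had 14.75, 1.92 and 35.81 TPM at 60 dpi, against 0.00, 1.89, 6.89 and 0.00 TPM at 7 dpi, and cyyr1 had 21.3 ± 5.59 TPM at 60 dpi (SD, n = 3) and 5.76 ± 6.31 TPM at 7 dpi (SD, n = 4). DUSP5 and CCM2 had 79.5 ± 5.62 and 58.6 ± 22.2 TPM at 60 dpi, against 34.0 ± 20.01 and 31.0 ± 14.9 TPM at 7 dpi. None of these 4 passed (limma adjusted p = 0.214, 0.16, 0.0968 and 0.27). sele, the selectin of activated endothelium, had 32.07, 34.82 and 15.54 TPM at 60 dpi, against 190.44, 39.85, 62.48 and 17.95 TPM at 7 dpi (adjusted p = 0.401), with replicate 1 at 7 dpi again the highest.

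Of 22 tested endothelial transcription factor IDs 1 rose (4.55%, against 3.2% over all tested IDs) and none fell. klf2a, a factor induced by blood flow in endothelium and endocardium, had 86.70, 75.67 and 86.97 TPM at 60 dpi, against 14.97, 21.36, 17.35 and 31.30 TPM at 7 dpi. Every late pool exceeded every early pool, and the log2 fold change was 1.97 ± 0.40 (SE, limma adjusted p = 0.0134, and 0.0651 without a mean-variance trend). The klf2a call was lost in 2 of 18 alternatives, with an adjusted p of up to 0.093. SOX7 had 32.14, 11.15 and 18.70 TPM at 60 dpi, against 3.45, 2.09, 2.64 and 0.00 TPM at 7 dpi, also without overlap, but did not pass (adjusted p = 0.0571). TAL1, a factor shared by the endothelial and blood lineages, had 1.82, 1.55 and 0.11 TPM at 60 dpi, against 33.81, 3.81, 9.66 and 25.26 TPM at 7 dpi (adjusted p = 0.0774). Beside TAL1, all 14 tested IDs of red cells and thrombocytes had a negative log2 fold change, whereas 48.3% of all tested IDs had a positive one. The summed TPM of the 14 overlapped between the stages, with 3727, 794 and 6276 TPM at 60 dpi, against 3336 to 7470 TPM at 7 dpi. Of the 14, 2 fell (14.3%, against 3.68% over all tested IDs), itga2b and mpl. itga2b had 1.71 ± 2.51 TPM at 60 dpi (SD, n = 3) and 58.1 ± 39.4 TPM at 7 dpi (SD, n = 4). Its early pools were enough on their own for it to reach the minimum for testing. The thrombopoietin receptor gene mpl had 0.00, 0.00 and 0.07 TPM at 60 dpi, against 17.63, 3.56, 4.82 and 9.21 TPM at 7 dpi. It reached the minimum for testing only through the early pools, where it is high, and its call (limma adjusted p = 0.0433) was lost in 11 of 17 alternatives, with an adjusted p of up to 0.127. The part of these cells in the TAL1, FLI1 and ERG values was not tested. KLF4 and ets2 had 42.6 ± 21.1 and 93.7 ± 22.6 TPM at 60 dpi, against 10.5 ± 9.55 and 44.5 ± 10.3 TPM at 7 dpi (adjusted p = 0.0972 and 0.103), and the 2 MEF2C IDs, ENSDARG00000009418 and ENSDARG00000029764, had 115 ± 6.55 and 71.7 ± 72.7 TPM, against 162 ± 30.5 and 56.6 ± 64.5 TPM (adjusted p = 0.377 and 0.892).

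In the endocardial list 3 of 21 tested IDs rose (14.3%) and 1 fell (4.76%), against 3.2% and 3.68% over all tested IDs. Besides klf2a, NRG1, which encodes the growth factor neuregulin 1, rose to 13.27, 24.85 and 12.65 TPM at 60 dpi, against 0.09, 2.04, 2.67 and 0.05 TPM at 7 dpi (limma adjusted p = 0.0427). The late pools, where NRG1 was the higher, were enough on their own for it to reach the minimum for testing. TGFBR3, a co-receptor gene for TGF beta, rose to 38.9 ± 3.97 TPM at 60 dpi (SD, n = 3), against 8.12 ± 4.16 TPM at 7 dpi (SD, n = 4; limma adjusted p = 0.0334). The NRG1 and TGFBR3 calls were lost in 12 and 11 of 18 alternatives, including the omission of any one library, except 7 dpi replicate 4 for TGFBR3. FN1 (ENSDARG00000019815), 1 of 2 fibronectin IDs that the name table does not tell apart as paralogs, was the ID that fell. It is also in the fibroblast list, with its values given there, so the endocardial list does not hold genes of endocardium alone. Which cells of the pools carried the rises of klf2a, NRG1 and TGFBR3 was not tested.

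NFATC1, a transcription factor gene that marks endocardium, had 53.41, 109.69 and 103.64 TPM at 60 dpi, against 48.08, 33.26, 34.88 and 58.66 TPM at 7 dpi. The groups overlapped only through replicate 1 at 60 dpi and replicate 4 at 7 dpi (limma adjusted p = 0.173). The 2 NOTCH1 IDs differed in direction: ENSDARG00000103554 had 9.17, 1.42 and 1.52 TPM at 60 dpi, against 17.56, 13.93, 26.92 and 33.27 TPM at 7 dpi, whereas ENSDARG00000052094 had 30.59, 26.86 and 36.38 TPM, against 9.31, 11.16, 13.94 and 7.79 TPM. In each the groups did not overlap, and neither passed (limma adjusted p = 0.057 and 0.0956). The difference between the paralogs was not tested.

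Cardiomyocyte transcripts, of the cells that touch the endocardium, stood out in some late pools. Their sum over 17 IDs was 651, 5052 and 4509 TPM in replicates 1, 2 and 4 at 60 dpi, against 667 to 1340 TPM at 7 dpi. Replicate 1 at 60 dpi thus lay among the early pools and the other two far above them. In that replicate klf2a had 86.70 TPM, against 75.67 and 86.97 TPM in replicates 2 and 4 at 60 dpi, NRG1 13.27 TPM, against 24.85 and 12.65 TPM, and TGFBR3 41.61 TPM, against 34.37 and 40.80 TPM. NFATC1 had its lowest late value there. The part of cardiomyocytes in these differences was not tested.

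**Figure D4:**
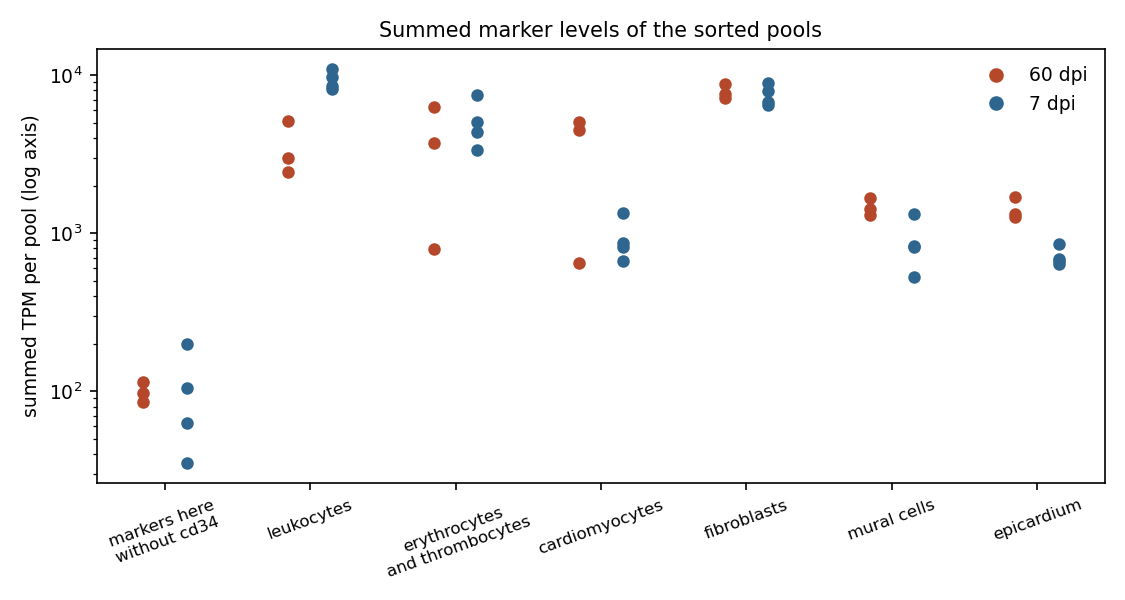
Summed TPM per pool, on a log axis, of the 10 marker IDs other than cd34 and of the marker lists of other cell types, with 60 dpi in red left of 7 dpi in blue. The endothelial markers sum to 35.12 to 198.49 TPM, far below the fibroblast sum of at least 6481 TPM in every pool, and the leukocyte sums of the stages do not overlap. Sums over different gene sets do not give the share of each cell type.

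Ligands of these receptors were followed in a list of 14 IDs. Of these 9 were tested, 1 rose (11.1%, against 3.2% over all tested IDs) and none fell. VEGFA (ENSDARG00000103542), a ligand of VEGF receptors, had 49.01, 60.03 and 79.49 TPM at 60 dpi, against 10.01, 7.80, 13.68 and 4.78 TPM at 7 dpi. Every late pool exceeded every early one, and the log2 fold change was 2.72 ± 0.50 (SE; limma, adjusted p = 0.00888), and the call held in all 18 alternatives. The other VEGFA ID, ENSDARG00000034700, had 0.05, 1.05 and 0.13 TPM at 60 dpi, against 6.81, 1.92, 4.64 and 0.06 TPM at 7 dpi (adjusted p = 0.373). APLN, the apelin gene, had 50.74, 35.89 and 58.46 TPM at 60 dpi, against 499.55, 104.71, 133.45 and 113.50 TPM at 7 dpi, without overlap (adjusted p = 0.0537). ANGPT4, the gene of an angiopoietin, had 18.82, 3.34 and 13.68 TPM at 60 dpi, against 2.70, 2.38, 1.26 and 2.55 TPM at 7 dpi (adjusted p = 0.235).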

How the data were processed

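The deposited table holds the authors' TPM values of 7 libraries (31388 IDs). The submitters' processing notes name RSEM 1.2.25, cutadapt, CASAVA 1.8.2 and the build Zv9. Aligner and annotation release are not given in the sources used here. Read depth is not kept by this unit. Per the labels' protocols, sub-nanogram RNA was amplified, which can lose low transcripts. A supplied name table gave a symbol to 25925 IDs.

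Groups came from the titles. The 15130 IDs that reached 1 TPM in 3 or more libraries were fitted with limma 3.58.1 in R 4.3.3 on log2(TPM + 1), with no term besides the time point, a mean-variance trend and two-sided p-values adjusted by Benjamini-Hochberg over all tested IDs at 0.05. Fold changes are 60 minus 7 dpi, and understate changes of low genes. The fit was checked on simulated data. Tables and figures were made in Python 3.11.15 (matplotlib 3.10.9, numpy 2.4.6, pandas 2.3.3).

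The members and the 13 lists were chosen with earlier results of these data known. Of 215 list entries, 148 matched by symbol and 47 without the paralog letter, which takes in all IDs of a shared symbol. Lists exclude the 11 IDs and partly overlap. Genes allowed by name were the 11 IDs, up to 5 per list with the smallest p, up to 3 per endothelial list with the highest TPM, and the 3 IDs closest in profile to each of the 3 most abundant tested markers. The other CXCR4 ID was added because it shares its symbol with a called ID. Of the lists of other cell types, only those beside a marker result are given by name. The alternatives were other pseudocounts, filters, variance settings and scalings, a replicate block and the omission of libraries.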

Additional observations from a re-analysis of the deposited data

Results flagged for a closer look

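Of the 11 marker IDs, 2 had a pool at 7 dpi far from the other 3. CLDN5 (ENSDARG00000014059) had 51.44 TPM in replicate 1, and the gap to the next pool was 0.922 of the range of the group. ERG had 17.93 TPM in the same replicate, with a gap of 0.919 of the range. Both exceed the 95% critical value of Dixon's test for 4 samples, which chance exceeds in about 1 of 20 groups, and the 3 pools at 60 dpi were not tested. FLI1 was also highest in that replicate, with a gap of 0.567 of its range. The cause was not tested.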

How the results depend on the processing

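Over 18 alternatives, the 9 tested markers kept direction and side of the threshold in 147 of 159 results, 5 newly passed, all of CLDN5 (ENSDARG00000014059), 1 was lost and 6 changed sign. The cd34 call was lost without a mean-variance trend (0 markers higher). Of the markers 1 was lower with a TPM minimum of 5, quantile normalization, median-ratio scaling or rescaling over IDs with a symbol, and 0 to 1 when single libraries were left out. Over all tested genes, 266 were higher and 330 lower without a filter, 186 and 291 without a trend, and 213 to 458 and 292 to 669 without single libraries. Of the wider lists, 1 was higher without a filter, 7 with a minimum of 5 and 1 with rescaling, and 1 to 4 without single libraries; 1 was lower without a trend, 6 with quantile normalization, 7 with rescaling, and 3 to 4 without single libraries. The causes were not tested.

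Replicate numbers are shared by the groups but nothing says that they pair. Deviations of same-numbered libraries correlated across genes at only 0.0054, 0.0145 and 0.028, and not every library correlated best with its own number. With the replicate block, on the 6 libraries of replicates 1, 2 and 4, 138 genes were higher and 162 lower, 0 and 1 of the wider lists (FN1, ENSDARG00000019815), and cd34 had an adjusted p of 0.0465; robo4, CXCR4 (ENSDARG00000041959) and klf2a had 0.0628, 0.0503 and 0.093.

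Log2 fold changes of 8 uncalled genes changed sign. FLI1 had -0.086 with quantile normalization, -0.035 with rescaling (all tested genes: -0.26), -1.0 without replicate 4 of both groups, and -0.66 to 0.87 without single libraries. MEF2C (ENSDARG00000029764) had -0.82 without replicate 4 of both groups and -0.56 to 1.24 without single libraries. EML2 had -0.0025 at a pseudocount of 5, -0.54 without replicate 4 of both groups and -0.44 to 0.99 without single libraries. For si:dkey-280e8.1 these were -0.80 without replicate 4 of both groups and -0.20 to 1.38 without single libraries. phf11 had 0.11 with the replicate block and -0.87 to 0.57 without single libraries. VEGFC, ESM1 and acvrl1 ranged from -2.09 to 0.77, from -0.17 to 0.59 and from -0.47 to 0.0078 without single libraries. TPM gives no depth, so the precision of low values is unknown.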

Other observations

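Lymphatic and sinusoidal endothelial genes were sparse: of 11 IDs 7 were tested. None passed with limma, against 6.88% of all tested IDs, and none had an unadjusted p under 0.05, against 22%. With only 7 IDs, such counts do not set the list apart from these shares. lyve1a, a hyaluronan receptor gene of lymphatic vessels, had 27.12, 8.34 and 16.83 TPM at 60 dpi, against 10.92, 11.32, 0.96 and 9.91 TPM at 7 dpi. PROX1, a transcription factor gene of lymphatic identity, averaged 1.91 ± 1.71 TPM at 60 dpi (SD, n = 3) and 0.61 ± 1.03 TPM at 7 dpi (SD, n = 4). CCBE1, whose protein aids processing of the lymphatic growth factor VEGFC, had 61.75, 65.93 and 0.00 TPM at 60 dpi, against 0.00, 7.35, 0.78 and 18.11 TPM at 7 dpi. VEGFC itself had 6.95, 0.00 and 51.59 TPM, against 36.68, 4.04, 7.10 and 12.48 TPM. MRC1, shared with macrophages, averaged 1.36 and 5.22 TPM.

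Among arterial and tip cell genes, GJA5 (ENSDARG00000069450), a connexin gene, averaged 22.4 ± 6.98 TPM at 60 dpi (SD, n = 3) and 8.25 ± 1.58 TPM at 7 dpi (SD, n = 4), with groups that did not overlap (limma adjusted p = 0.183). ESM1, a tip cell gene, averaged 45.6 ± 30.8 and 31.7 ± 3.17 TPM (adjusted p = 0.748). VEGFD averaged 19.97 ± 16.4 and 4.81 ± 5.38 TPM (adjusted p = 0.406).

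The IDs closest in profile to cdh5 over the 7 libraries were GSC, RPP30 and TTYH2 (ENSDARG00000016934), at root mean square differences of 0.26, 0.27 and 0.30 on the log2 scale. Those closest to FLI1 were phf11, EML2 and si:dkey-280e8.1, at 0.38, 0.38 and 0.42.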
